A study of Rattus norvegicus with 90 samples.

Results

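The vomeronasal receptors are G protein coupled receptors of the accessory olfactory system of rodents. The probes described here were all those of the bead array whose platform gene symbol begins with Vom1r or Vom2r. There were 123 of them, 85 Vom1r and 38 Vom2r probes, among 22523 probes, of which 13793 carry 1 gene symbol. They name 121 genes, since Vom1r76 and Vom2r70 have 2 probes each. The prefix itself uses no measured value, but the family was selected on the values of Vom2r65 and Vom2r3, which were lower with gastrin at 4 to 8 h and at 10 and 14 h. The values of members in those 2 contrasts are therefore a description. For these 2 the number of members past the threshold is printed beside the share of all probes past it, without p-values, and supports nothing. The cells were AR42J, an established rat line that came from a tumour of the exocrine pancreas, sampled from 0 to 14 h. There were 35 untreated arrays, 34 arrays with gastrin, a peptide hormone of the stomach, 9 with cycloheximide, an inhibitor of protein synthesis, and 10 with gastrin and cycloheximide together. Untreated and gastrin arrays came from all 6 batches named in the labels, and cycloheximide arrays only from batches 4 to 6, at 1, 2, 4 and 6 h. A further 2 arrays, whose title and stimulus label contradict each other, entered no comparison. Values are the deposited levels on a log2 scale, and a difference is given on that scale with its standard error from limma. "Called" means a Benjamini-Hochberg adjusted p under 0.05 over all 22523 probes.

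Vom1r and Vom2r receptors are made by separate sets of sensory neurons of the vomeronasal organ, where they detect pheromones and other social cues. Vom1r neurons signal through the G protein subunit Gnai2, and Vom2r neurons, whose receptors have a long extracellular domain, through Gnao1. Both sets open the channel Trpc2 through phospholipase C. The genes lie in clusters that expanded by duplication, so that many members have close copies. No role in the exocrine pancreas is taken as known here.

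The 4 promoters shown next belong to the members that differed most with gastrin, Vom2r65, Vom2r3, Vom2r4 and Vom2r6, and they are shown because they are nearly the same sequence. They are RefSeq sequences of assembly GRCr8, 300 bases each, from 250 bases before to 50 bases after the annotated start, read 5′ to 3′ on the gene's strand. Capitals mark the 26 positions at which the 4 do not all share a base, and the other 274 positions, in lower case, are the same in all 4. Vom2r65 is at chr1:637138-637437 on the + strand, Vom2r3 at chr1:2759374-2759673 on the + strand, Vom2r4 at chr1:2889517-2889816 on the - strand and Vom2r6 at chr1:3025673-3025972 on the + strand.
Vom2r65: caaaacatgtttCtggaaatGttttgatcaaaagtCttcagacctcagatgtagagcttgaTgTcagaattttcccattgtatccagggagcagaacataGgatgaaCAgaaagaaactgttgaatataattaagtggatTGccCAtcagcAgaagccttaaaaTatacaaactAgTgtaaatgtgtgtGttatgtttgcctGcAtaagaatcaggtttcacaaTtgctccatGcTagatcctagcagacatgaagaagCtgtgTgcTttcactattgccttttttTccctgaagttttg
Vom2r3: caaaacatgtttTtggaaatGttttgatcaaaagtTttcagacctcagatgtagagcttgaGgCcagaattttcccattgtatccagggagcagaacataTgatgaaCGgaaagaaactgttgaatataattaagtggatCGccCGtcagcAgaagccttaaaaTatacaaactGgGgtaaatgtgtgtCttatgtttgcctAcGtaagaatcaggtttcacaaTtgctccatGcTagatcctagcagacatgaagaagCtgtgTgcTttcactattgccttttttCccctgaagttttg
Vom2r4: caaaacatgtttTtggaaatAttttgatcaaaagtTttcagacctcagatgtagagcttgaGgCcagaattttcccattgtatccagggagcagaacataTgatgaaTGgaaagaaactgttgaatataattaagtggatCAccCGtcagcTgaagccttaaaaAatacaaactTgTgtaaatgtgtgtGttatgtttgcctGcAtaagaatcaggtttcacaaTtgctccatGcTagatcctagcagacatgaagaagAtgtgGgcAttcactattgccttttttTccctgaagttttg
Vom2r6: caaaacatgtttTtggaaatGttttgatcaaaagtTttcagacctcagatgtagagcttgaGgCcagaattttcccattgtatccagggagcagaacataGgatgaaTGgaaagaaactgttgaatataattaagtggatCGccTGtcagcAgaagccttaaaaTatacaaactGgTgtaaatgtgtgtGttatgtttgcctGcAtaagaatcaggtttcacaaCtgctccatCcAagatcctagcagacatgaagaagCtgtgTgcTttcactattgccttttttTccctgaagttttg
The 6 pairs among these promoters were 94.3% to 96.3% identical, without gaps. RefSeq promoters were matched by gene for 108 members, 36 of them Vom2r. One of the 4 set against another Vom2r member gave 46.3% to 83.2% over 128 pairs, with a median of 53.2%. The 496 pairs of other Vom2r members had a median of 52.0%, and their highest value was 99.7%, between Vom2r40 and Vom2r41. Vom2r59, which had the third highest level of all members, was 53.9% to 55.0% identical to the 4 and 93.4% identical to Vom2r60. Of 33469 promoters in the table, 7 others were at least 90% identical to 1 of the 4, namely those of Vom2r1, Vom2r5, Vom2r67 and 4 genes without a family symbol. None of these 7 genes has a probe on the array. Of these 7 genes, 6 lie on the same stretch of chromosome 1 as the 4, and Vom2r67 lies on chromosome 14.

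The probe sequences were not used here, so whether a probe also binds RNA of a close copy was not tested. The values of Vom2r65, Vom2r3, Vom2r4 and Vom2r6 are those of the probes with these names. Identity of promoters is not identity of the stretches that the probes bind. On both strands, the 7-base AP-1 motif TGACTCA was found in 0 of the 4 promoters and in 4.63% of all 33469. The 5-base core TGACG of the CRE motif was found in 2 of the 4, Vom2r3 and Vom2r4, and in 21.2% of all. No match says only that these letters are not in this window.

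Most vomeronasal receptor probes were dim. The reference for background was the 95th percentile, over 62 probes of olfactory receptors with symbols beginning with Olr, of the mean level in the untreated arrays, which was 6.48. At or below it lay 110 of the 123 members, and 13 lay above it (2 Vom1r and 11 Vom2r probes). This is 10.6% of the members, against 46.2% of all probes. The median level was 6.09 for Vom1r, 6.25 for Vom2r and 6.10 for all members. It was 6.07 for the olfactory receptors, 6.09 for 34 probes of taste and trace amine receptors, and 6.401 for all probes. The median SD of a member over the 35 untreated arrays was 0.0975. Levels of different probes depend on how each probe binds, so the order of members describes the signals and not amounts of RNA.

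Vom2r65 had the highest mean level of the family, 8.84 ± 0.35 (SD, n = 35 untreated arrays), higher than or equal to that of 81.8% of all probes. Vom2r3 followed with 8.23 ± 0.32, Vom2r59 with 7.79 ± 0.32, Vom2r6 with 7.43 ± 0.77 and Vom2r4 with 6.98 ± 0.28. Vom2r65, Vom2r3 and Vom2r59 were above the reference in all 88 arrays with a group, Vom2r6 in 87 and Vom2r4 in 79. The other 8 members above the reference had means of 6.56 to 6.74. Just above it were Vom2r75 and Vom2r30, both at 6.57, and Vom1r36 at 6.56, and just below it were Vom1r98 at 6.47 and Vom2r24 and Vom2r2, both at 6.42. The lowest member was Vom2r41 at 5.66 ± 0.09, although its promoter is the near copy of that of Vom2r40, whose mean was 6.25.

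**Figure D1:**
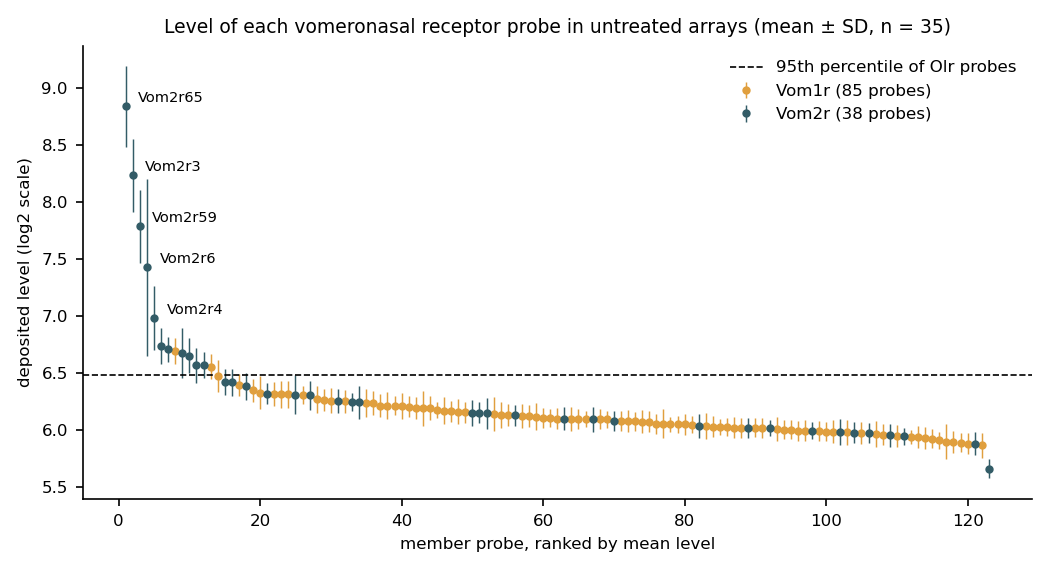
Mean deposited level (log2 scale, vertical axis) of each of the 123 probes in the 35 untreated arrays, ranked from highest to lowest (horizontal axis), with SD bars, coloured by family. The dashed line is the 95th percentile of the olfactory receptor probes, 6.48, and 13 members lie above it, led by Vom2r65 at 8.84.

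Markers gave the setting of these levels. Of 17 acinar genes listed, 14 had a probe and 13 of those were above the reference, among them the carboxypeptidase Cpa1 at 14.55 and the elastase Cela1 at 14.30. Of 30 genes listed for vomeronasal and olfactory signalling, 20 had a probe, and Trpc2 was not among them. Above the reference were 11 of the 20, against 55.2% of all probes with 1 gene symbol. The 11 included Gnai2 at 11.54 and Gnao1 at 9.28, the G protein alpha subunits of the vomeronasal neurons, which many other cells also use. Further ones were Gng13 at 8.69 and Gng8 at 6.76, gamma subunits of sensory neurons, Adcy3, the olfactory adenylyl cyclase, at 7.85, Rtp2, a receptor transport protein, at 6.65, and B2m, Meis2, Reep1, Nrp2 and Itpr3 at 6.59 to 9.69. Omp, the olfactory marker protein, was at 6.04, Plcb2, a phospholipase C, at 6.09, Cnga2, an olfactory channel subunit, at 6.39, and Rtp1, another receptor transport protein, at 6.00, all at or below the reference, as were 5 others of the list. Of 8 neuronal genes, 5 were above it, with the synaptic gene Syp at 9.47. The part of these marker levels in any result below was not tested. A further measure concerned the arrays: those of untreated cells at 2 h in batches 4 and 5 stood apart from the other untreated arrays of their batch. A score was scaled so that these arrays average 1 and the other untreated arrays of the batch 0. Of the 90 arrays, 7 scored above 0.5. The score did not set apart the 2 h arrays alone. In batches 4 and 5 arrays with a numbered title scored 0.20 to 1.10, and those without -0.43 to -0.01. In batches 2 and 3 at 1 and 1.5 h, gastrin arrays scored 0.29 to 0.42 and untreated ones 0.00 to 0.08. Fits that use the score may thus also take out part of a stimulus or title difference. Batch-centred levels had a correlation with this score over 88 arrays, which share batches, of -0.72 for Vom2r6, -0.52 for Vom2r65, -0.36 for Vom2r3, -0.05 for Vom2r4 and 0.18 for Vom2r59. Its part in the results was not tested beyond the fits without such arrays that are given below.

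In the first hours of gastrin no member was called. At 0.5 to 2 h, 0 of 123 members passed the limma test, against 9.21% of all probes. The smallest adjusted p of a member was 0.0794. An unadjusted p under 0.05 was found for 6 of the 123 members and for 4743 of all 22523 probes. Vom2r65 lay between 8.12 and 9.24 in 12 untreated samples (median 8.74), and between 8.26 and 9.13 in 12 gastrin samples (median 8.55). The groups overlapped, and the difference was -0.08 ± 0.06. Vom2r3 differed by -0.07 ± 0.07, Vom2r4 by -0.02 ± 0.06 and Vom2r6 by 0.01 ± 0.06. Within this window the sign was not steady: the mean paired difference of Vom2r65 was 0.23 at 0.5 h (2 pairs), -0.13 at 1 h (4 pairs), -0.46 at 1.5 h (2 pairs) and 0.06 at 2 h (4 pairs). For Vom2r3 these values were 0.30, -0.16, -0.48 and 0.05. One fit left out the 2 h arrays of batches 4 and 5 and the 6 h arrays of batch 4, the blocks with an array scored above 0.5. There 8 of the 123 members were called, all lower. In that fit 4220 of all 22523 probes were called, so nothing is read from the count. Vom2r3 was at -0.18 (limma adjusted p = 0.0156) and Vom2r65 at -0.16 (adjusted p = 0.0474). The other 6 members called were Vom1r80, Vom1r98, Vom2r27, Vom2r32, Vom2r35 and Vom2r47. Without batch 2 the sign turned, to 0.05 for Vom2r65 and 0.06 for Vom2r3, neither called.

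At 4 to 8 h of gastrin, 4 Vom2r probes were lower by 1.46-fold to 1.62-fold, and Vom2r2 by 1.10-fold. This is the first of the contrasts on which the family was selected. Vom2r65 lay between 8.69 and 9.65 in 11 untreated samples (median 9.09) and between 8.06 and 8.97 in 11 gastrin samples (median 8.24). The groups overlapped, also within batch 4, where gastrin at 4 h (8.95) was above untreated at 6 h (8.69). Between samples of the same batch and time gastrin was lower in 11 of 11 pairs, by 0.52 to 1.11, with a fitted difference of -0.69 ± 0.07. Vom2r3 lay between 7.97 and 8.60 untreated (median 8.50) and between 7.42 and 8.16 with gastrin (median 7.77), was lower in 11 of 11 pairs and differed by -0.63 ± 0.08.

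Vom2r4 and Vom2r6 differed by like amounts from lower levels. Vom2r4 lay between 6.65 and 7.53 untreated (median 7.01) and between 6.13 and 6.88 with gastrin (median 6.54), and differed by -0.56 ± 0.06, lower in 11 of 11 pairs. Vom2r6 lay between 6.96 and 9.40 untreated (median 7.38) and between 6.58 and 8.68 with gastrin (median 6.86), and differed by -0.55 ± 0.06, again lower in 11 of 11 pairs. Its untreated level at 4 h was 7.38 and 7.31 in batches 2 and 3, and 9.23, 8.78 and 9.40 in batches 4, 5 and 6. It also varied within a batch, with 7.97 in batch 4 and 8.09 in batch 5 at 6 h. In batches 4 and 5 the 4 h arrays belong to a title series without a number, and the 6 h arrays to a numbered title series. Time and title series therefore cannot be told apart from the 4 and 6 h arrays alone. At 1 h batches 4 and 5 hold untreated arrays of both title series, but their Vom2r6 levels were not compared. Vom2r2, at background level, differed by -0.14 ± 0.04 and was lower in 9 of 11 pairs.

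These 5 members, all lower, were past the threshold, as were 10.3% of all probes, and nothing is read from that count. Vom2r2 was no longer past it without batch 2 (-0.18), without batch 3 (-0.10) or without the block, and Vom2r6 without the block. The other 118 members differed by -0.09 to 0.15, with a median of 0.00. Vom2r59, which is also well above the reference, differed by -0.00 ± 0.05, and the 9 members above the reference other than the 4 differed by -0.08 to 0.09. The median over all 123 members was -0.00, as over all probes.

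**Figure D2:**
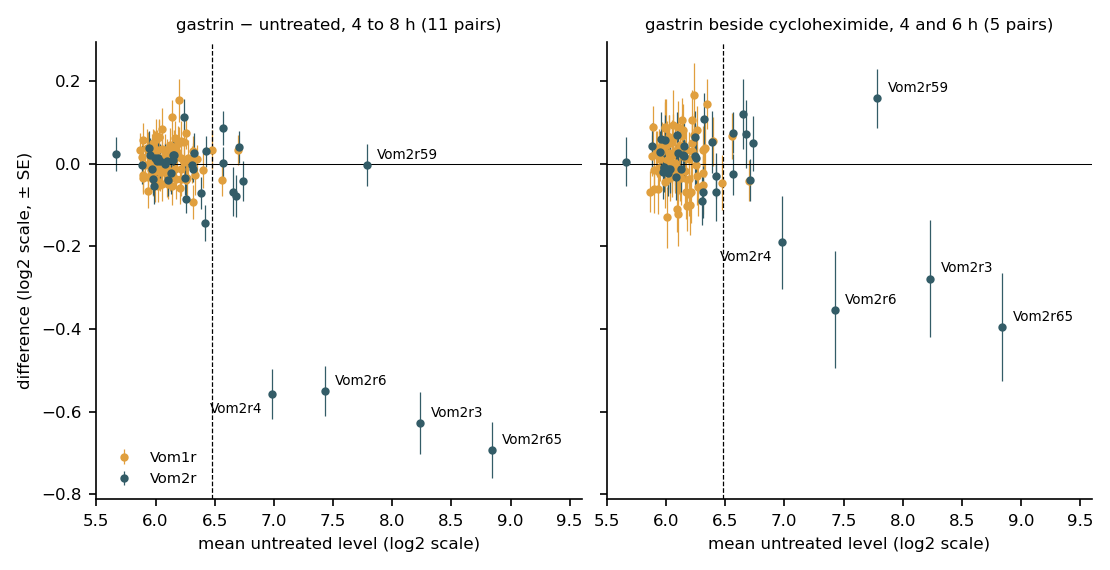
Fitted difference (log2 scale, vertical axis, bars are the standard error) of each of the 123 probes against its mean untreated level (horizontal axis), for gastrin at 4 to 8 h (left) and for gastrin beside cycloheximide at 4 and 6 h (right); the dashed line is the background reference of 6.48. Vom2r65, Vom2r3, Vom2r4 and Vom2r6 lie at -0.55 to -0.69 on the left and at -0.19 to -0.39 on the right, and the cloud of dim members is centred near 0 in both.

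The differences of the 4 were present at every time from 4 h on. For Vom2r65 the mean paired difference was -0.78 at 4 h (5 pairs), -0.68 at 6 h (4 pairs), -0.62 at 8 h (2 pairs), -0.88 at 10 h (2 pairs), -0.91 at 12 h (1 pair) and -0.63 at 14 h (3 pairs). For Vom2r3 the values at the same times were -0.64, -0.69, -0.56, -0.91, -0.87 and -0.50. Vom2r6 gave -0.67, -0.62, -0.37, -0.55, -0.62 and -0.38. Vom2r4 gave -0.51, -0.57, -0.59, -0.63, -0.46 and -0.21. At 14 h all 4 were nearer to the untreated level than at 10 h, which is given without a test, and the 14 h mean holds batch 1 besides batches 2 and 3.

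At 10 and 14 h, the second of the contrasts that selected the family, every gastrin sample of Vom2r65 was below every untreated sample. The untreated samples were at 8.78 and 8.90 at 10 h and at 9.003, 8.78 and 8.76 at 14 h, and the gastrin samples at 7.80 and 8.13 at 10 h and at 8.29, 8.23 and 8.14 at 14 h. The fitted difference was -0.75 ± 0.10. The Vom2r3 samples also did not overlap, with 8.39, 8.39, 8.36, 8.24 and 8.20 untreated and 7.39, 7.57, 7.89, 7.81 and 7.61 with gastrin, a difference of -0.70 ± 0.11. Vom2r6 differed by -0.46 ± 0.08, Vom2r4 by -0.42 ± 0.08, each lower in 5 of 5 pairs.

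Vom2r47 was also lower in 5 of 5 pairs at 10 and 14 h. Its untreated samples ranged over 6.62, 6.63, 6.66, 6.71 and 6.87 and its gastrin samples over 6.30, 6.31, 6.36, 6.398 and 6.59, so the groups did not overlap, and it differed by -0.30 ± 0.08. When the array score entered the model, its difference was -0.19. It differed by -0.07 ± 0.06 at 4 to 8 h. With the 4 it made 5 members past the threshold, all lower, as were 7.52% of all probes in either direction, and nothing is read from the count. Leaving out batch 2 or batch 3 lowered it to 3 and 2, where 92 and 317 of all probes were called.

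**Figure D3:**
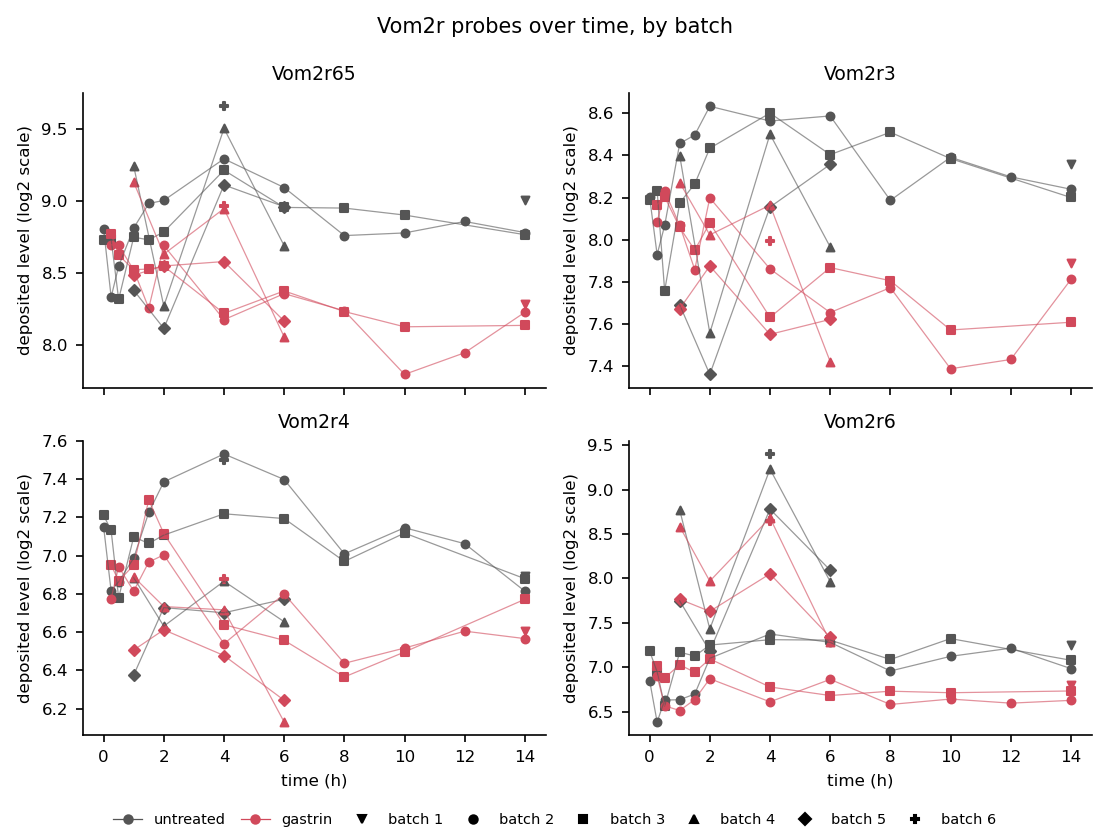
Deposited level (log2 scale, vertical axis) of Vom2r65, Vom2r3, Vom2r4 and Vom2r6 in untreated (grey) and gastrin (red) arrays over time in hours (horizontal axis); lines join the points of a batch and the marker shape gives the batch. The gastrin points lie below the untreated points of their batch at every time from 4 h on, and Vom2r6 is higher in batches 4 to 6 than in batches 2 and 3 at 4 h.

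Gastrin given beside cycloheximide, set against cycloheximide alone, used arrays that enter no gastrin contrast above. The family was selected on other contrasts, but with earlier results of these data known. The error of this comparison is estimated together with untreated and gastrin arrays of batches 4 to 6, so it is not fully separate. At 4 and 6 h, Vom2r65 was at 9.65, 9.24 and 9.89 with cycloheximide alone at 4 h in batches 4, 5 and 6 and at 9.31 and 8.75 at 6 h in batches 4 and 5. With gastrin added it was at 9.36, 8.69 and 9.26 at 4 h and at 9.45 and 8.11 at 6 h. The groups overlapped, gastrin was lower in 4 of 5 pairs, and the exception was batch 4 at 6 h. The fitted difference was -0.39 ± 0.13, which was not called (limma adjusted p = 0.129).

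Vom2r3 was at 8.69, 8.30, 8.68, 8.61 and 7.998 with cycloheximide alone, in the same order of samples, and at 8.33, 7.95, 8.09, 8.89 and 7.63 with gastrin added. Again the pair of batch 4 at 6 h went the other way, by 0.27, and the other 4 pairs were lower by 0.35 to 0.59. The difference was -0.28 ± 0.14 (limma adjusted p = 0.461). Vom2r6 was at 9.30, 8.93, 9.55, 8.46 and 7.61 with cycloheximide alone and at 9.14, 8.30, 8.99, 8.51 and 7.14 with gastrin added, a difference of -0.35 ± 0.14 (limma adjusted p = 0.266).

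Vom2r4 had the smallest difference of the 4 beside cycloheximide. It was at 7.01, 6.79, 7.24, 7.20 and 6.72 with cycloheximide alone and at 6.82, 6.68, 6.90, 7.29 and 6.31 with gastrin added, a difference of -0.19 ± 0.11 (limma adjusted p = 0.574). All 4 were lower in 4 of 5 pairs, and in all 4 the exception was batch 4 at 6 h. Of the 123 members 0 were called, against 2.7% of all probes. In limma 6 members had an unadjusted p under 0.05, of which Vom2r65 and Vom2r6 were lower, as had 2632 of all 22523 probes. Members other than the 4 differed by -0.13 to 0.17.

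The count depended on which arrays were left out. The cycloheximide array of batch 4 at 6 h scored 0.77 on the array score. One fit left out the blocks of batch and time that held an array above 0.5. These were 2 and 6 h of batch 4 and 2 h of batch 5. In limma 3 of the 123 members were then called, all lower, and 706 of all 22523 probes in either direction. The 3 members were Vom2r65 at -0.53 ± 0.08 (adjusted p = 0.000696), Vom2r3 at -0.42 ± 0.08 (adjusted p = 0.0045) and Vom2r6 at -0.45 ± 0.11 (adjusted p = 0.0232). Without batch 4 as a whole, Vom2r65 alone was called, at -0.60 ± 0.11 (limma adjusted p = 0.00695), as were 328 of all probes. Both fits leave out the pair of batch 4 at 6 h, the exception in all 4. Without batch 5, without batch 6 and with the array score in the model, 0 members were called. In these fits 195, 535 and 807 of all probes were called. With 1 batch left out, the difference of Vom2r65 ranged from -0.60 to -0.26.

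**Figure D4:**
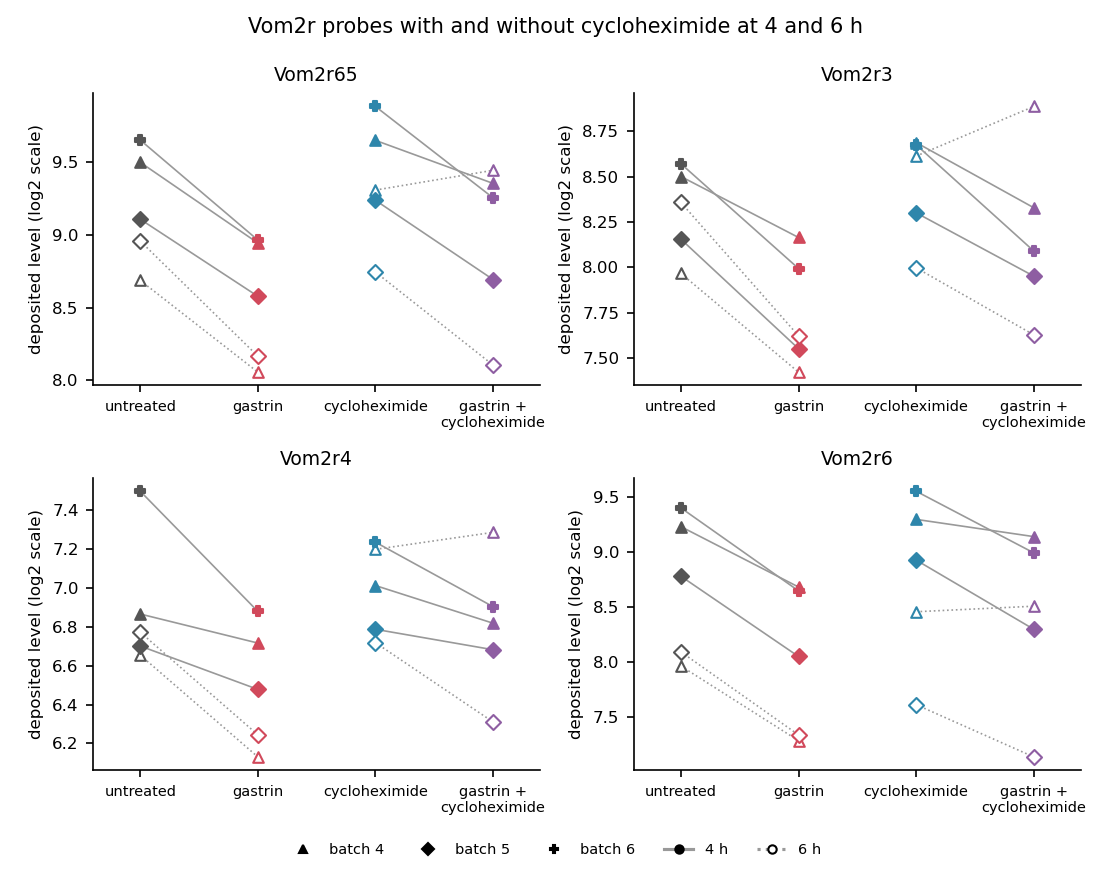
Deposited level (log2 scale, vertical axis) of Vom2r65, Vom2r3, Vom2r4 and Vom2r6 under each stimulus (horizontal axis) in batches 4 to 6 at 4 h (filled, solid lines) and 6 h (open, dotted lines); lines join samples of a batch and time without and with gastrin. All 5 lines fall from untreated to gastrin, and 4 of 5 fall from cycloheximide to gastrin with cycloheximide, the exception in each panel being batch 4 at 6 h.

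Whether the gastrin difference itself was changed by cycloheximide was tested as an interaction at 4 and 6 h, which reuses the gastrin and untreated arrays of batches 4 to 6. It was 0.24 ± 0.19 for Vom2r65, 0.28 ± 0.20 for Vom2r3, 0.34 ± 0.20 for Vom2r6 and 0.22 ± 0.16 for Vom2r4, positive where the difference was smaller beside cycloheximide. Of the 123 members 0 were called in limma, against 0.2% of all probes. An unadjusted p under 0.05 was found for 2 members and for 1726 of all 22523 probes. The smallest adjusted p was 0.226. A smaller gastrin difference beside cycloheximide was thus not shown, nor was an equal one.

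At 1 and 2 h beside cycloheximide, where gastrin alone also called no member, the differences of the 4 were within their errors. Vom2r65 was at 9.23 and 8.56 with cycloheximide alone in batch 4 and at 8.56 and 8.63 in batch 5, at 1 and 2 h, and at 9.04 and 8.63 and at 8.68 and 8.26 with gastrin added. The groups overlapped and the difference was -0.09 ± 0.15. It was -0.01 ± 0.16 for Vom2r3, -0.10 ± 0.16 for Vom2r6 and 0.06 ± 0.13 for Vom2r4. In limma 0 members were called, against 0.0577% of all probes. An unadjusted p under 0.05 was found for 6 members and for 1252 of all 22523 probes. The lowest member was Vom2r2 at -0.23 ± 0.08.

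Cycloheximide alone lowered Vom2r59 at 4 and 6 h, and Vom2r65 and Vom2r3 lay higher with it at 1 and 2 h without being called. These comparisons share their untreated arrays with the gastrin contrasts of batches 4 to 6. At 4 and 6 h Vom2r59 was at 7.26, 7.30 and 7.20 in the untreated samples of batches 4, 5 and 6 at 4 h and at 7.61 and 7.66 at 6 h. With cycloheximide it was at 7.07, 7.01 and 7.11 at 4 h and at 7.10 and 7.35 at 6 h. The groups overlapped, and cycloheximide was lower in 5 of 5 pairs, with a difference of -0.28 ± 0.07 (limma adjusted p = 0.0045). Leaving out batch 4 or batch 5 ended the call, at -0.23 and -0.26.

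Vom2r76, at background level, was the other member called at 4 and 6 h, with -0.16 ± 0.06 (limma adjusted p = 0.0419). Its untreated samples were at 6.15, 6.17, 6.60, 6.16 and 6.15 and its cycloheximide samples at 6.02, 6.06, 6.29, 6.05 and 6.00, so that 1 sample made the groups overlap. In all 2 members were called, both lower, or 1.63% of the family against 23.3% of all probes. Leaving out any of batches 4, 5 and 6 left 0 or 1 call. The 4 members that were lower with gastrin were not called with cycloheximide: Vom2r65 differed by 0.18 ± 0.13, Vom2r3 by 0.14 ± 0.14, Vom2r4 by 0.09 ± 0.11 and Vom2r6 by 0.08 ± 0.14.

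At 1 and 2 h of cycloheximide 3 members were called, all lower, or 2.44% of the family against 11.5% of all probes. They were Vom1r36 at -0.20 ± 0.06 (limma adjusted p = 0.0365), Vom2r30 at -0.18 ± 0.06 (adjusted p = 0.029) and 1 of the 2 probes of Vom2r70 at -0.17 ± 0.06 (adjusted p = 0.0468). Vom1r36 was at 6.79 and 6.63 untreated in batch 4 at 1 and 2 h and at 6.34 and 6.44 in batch 5, and at 6.55 and 6.60 and at 6.14 and 6.12 with cycloheximide. Its groups overlapped across batches, and it was lower in 4 of 4 pairs, by 0.03 to 0.32. The second Vom2r70 probe differed by -0.03 ± 0.07. Leaving out batch 4 or batch 5 left 0 calls, as did the fit without the 2 h arrays of these batches and the 6 h arrays of batch 4.

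Vom2r65 and Vom2r3 were higher with cycloheximide at 1 and 2 h in 4 of 4 pairs, but not called. Vom2r65 was at 8.92 and 8.27 untreated in batch 4 at 1 and 2 h and at 8.25 and 8.12 in batch 5, and at 9.23 and 8.56 and at 8.56 and 8.63 with cycloheximide. The difference was 0.36 ± 0.15 (limma adjusted p = 0.123). Vom2r3 differed by 0.32 ± 0.16 (limma adjusted p = 0.206). In 2 of the 4 pairs the untreated array is one of the 2 h arrays that stood apart, and without the 2 h arrays the differences were 0.31 and 0.15.

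Untreated cells were compared over time in batches 2 and 3, at 8, 10 and 14 h against 0, 0.25 and 0.5 h, again with arrays that the gastrin contrasts share. Vom2r3 was at 8.20, 7.93 and 8.07 early in batch 2 and at 8.19, 8.23 and 7.76 in batch 3. Late it was at 8.19, 8.39 and 8.24 in batch 2 and at 8.51, 8.39 and 8.20 in batch 3. The groups overlapped, and the difference was 0.26 ± 0.08 (limma adjusted p = 0.0488). Vom1r10, at background level, was the other member called, at 0.20 (adjusted p = 0.0326). These 2, both higher, are 1.63% of the family against 9.05% of all probes, and leaving out either batch left 0 calls. Vom2r65 differed by 0.24 ± 0.09 (limma adjusted p = 0.103).

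The patterns of the 4 over arrays were close for some pairs and less so for others. The Pearson correlation of batch-centred levels over 88 arrays, which share stimuli, times and batches, was 0.94 between Vom2r65 and Vom2r3, the highest that Vom2r65 had with any probe. It was 0.82 between Vom2r65 and Vom2r6 and 0.79 between Vom2r65 and Vom2r4. A probe with no gene symbol in the platform table, ILMN_1375173, had the second highest value with Vom2r65, 0.88, and with Vom2r3, 0.86. Among probes with the symbol of another gene, the closest to Vom2r65 was Dennd6a, a membrane trafficking regulator, at 0.76 (rank 5 of all probes). Next were the orexin receptor Hcrtr2 at 0.67 (rank 12) and Secisbp2, a factor for selenoprotein synthesis, at 0.65 (rank 13). Probes without 1 gene symbol took the ranks between Dennd6a and Hcrtr2. For Vom2r3 the closest with a symbol of another gene were Dennd6a at 0.66, the phosphatase Cpped1 at 0.65 and the methyltransferase-like Mettl25 at 0.63.

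In the comparison of gastrin beside cycloheximide at 4 and 6 h, Hcrtr2 differed by -0.53 ± 0.11. The unnamed probe, ILMN_1375173, differed by -0.34 ± 0.13 and Dennd6a by -0.28 ± 0.09. These probes were picked by correlation over arrays that include those of this comparison. Their differences are therefore a description, and no p-value is read. Vom2r59 had correlations of -0.16 with Vom2r65 and -0.02 with Vom2r3. Its closest probes were of other genes, with Clec14a, an endothelial lectin, at 0.81 and the ferritin subunit Ftl1 at 0.80.

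The 4 members that differed most with gastrin lie on 1 stretch of chromosome 1. By Entrez identifier 118 of the 123 probes matched the GRCr8 gene table. Counted as genes, 66 lie on chromosome 1 and 36 on chromosome 4. In the order of that table, the first 69 genes of chromosome 1 end with Vom2r6, and 5 of these 69 genes have a probe. These 5 are Vom2r65, Vom2r2, Vom2r3, Vom2r4 and Vom2r6, of which Vom2r2 had the smallest difference, at -0.14, past the threshold in some fits only. The other 64 genes of the stretch have no probe matched by Entrez identifier, among them all 3 neighbours on each side of Vom2r65 and of Vom2r3. Vom2r2 lies between Vom2r65 and Vom2r3 in this order, and its promoter was only 49.4% to 52.2% identical to those of the 4. The other 61 members on chromosome 1 differed by -0.09 to 0.11 at 4 to 8 h of gastrin. Since that contrast selected the family, the position is a description.

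**Figure D5:**
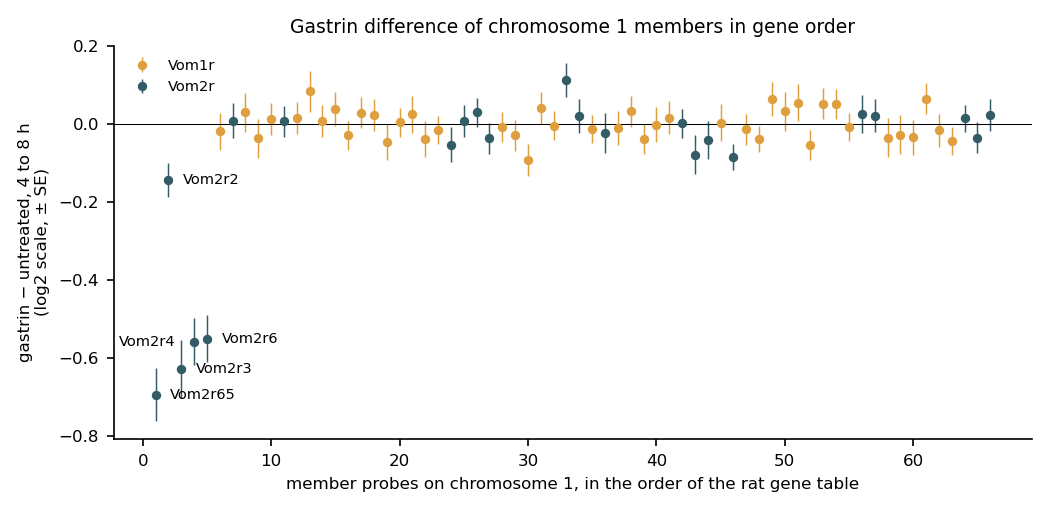
Fitted gastrin difference at 4 to 8 h (log2 scale, vertical axis, bars are the standard error) of the members on chromosome 1 in the order of the GRCr8 gene table (horizontal axis), coloured by family. The first 5 members, from Vom2r65 to Vom2r6, lie between -0.14 and -0.69, and the later ones scatter around 0.

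Genes of vomeronasal and olfactory signalling were set beside the receptors. Of the 20 with a probe, 0 were higher and 1 lower at 4 to 8 h of gastrin, where 10.3% of all probes were called, namely Gng13, a G protein gamma subunit of sensory cells, at -0.18 ± 0.06 (limma adjusted p = 0.0315). At 10 and 14 h the same gene was higher, at 0.31 ± 0.08 (adjusted p = 0.0133). It was the only 1 of the 20 called there, where 7.52% of all probes were called. The median of the 20 was 0.00 at 4 to 8 h and -0.01 at 10 and 14 h. At 4 and 6 h of cycloheximide 1 was higher and 3 were lower, 4 of the 20, where 23.3% of all probes were called. Gnai2 was lower by -0.51 ± 0.09 (adjusted p = 3.9e-05), B2m, the light chain of class I molecules, by -0.32 ± 0.10 (adjusted p = 0.0202) and Itpr3, a calcium channel of internal stores, by -0.22 ± 0.07 (adjusted p = 0.0234), and the chloride channel Ano1, at background level, was higher by 0.19 ± 0.07 (adjusted p = 0.0335). Beside cycloheximide at 4 and 6 h, gastrin called 1 of the 20, higher, where 2.7% of all probes were called. Gnao1, the subunit that couples Vom2r receptors, differed by -0.14 ± 0.06 at 4 to 8 h of gastrin (limma adjusted p = 0.208).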

How the data were processed

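The arrays are Illumina bead arrays of total RNA, and per the labels' protocols they were run by Illumina's standard procedure. The authors deposited log2 levels, and the submitters' processing notes name lumi 2.4.0. No source used here says whether the scale is plain or variance-stabilised, so differences of dim probes can be compressed. Array medians lay between 6.403 and 6.406, so no further normalization was applied. Detection calls and scanner intensities were not used, and the number of arrays limits the precision.

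Groups came from the labels. Arrays of 1 batch, stimulus and time were averaged in the gastrin fits; at 1 h the fits with cycloheximide used the arrays of the title series that holds all 4 stimuli. Differences were fitted over all 22523 probes with limma 3.58.1 in R 4.3.3 (lmFit and eBayes, Benjamini-Hochberg adjustment, threshold 0.05), with batch and time as a block, and with batch as the block for untreated cells. The labels name the batch; correlations of the deviations of arrays with the same batch and time ranged from 0.20 to 0.92. Whether each batch was its own culture is not stated, so p-values reflect only how these samples vary, which may be technical. The procedure was tested on simulated data.

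Members, lists and rules were chosen with earlier results of these data known. Members named are Vom2r65, Vom2r3, those called in any of 9 contrasts, the 5 brightest and the dimmest; other genes are those nearest in pattern, in gene order, or with the smallest p in the signalling list. Promoters were aligned globally with Biopython 1.88. Alternatives were no block, other eBayes options, array weights, quantile normalisation, a filter on dim probes, the array score, and each batch left out.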

Additional observations from a re-analysis of the deposited data

Results flagged for a closer look

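Of 40 groups of 4 or more samples of 1 stimulus and time, over the 5 brightest members, 2 held a sample far from the others, and chance gives about 1 in 20. Vom2r65 was at 9.13 with gastrin at 1 h in batch 4, while the other 3 samples lay between 8.49 and 8.52. The untreated sample of the same batch and time was at 9.24, and both values are means of 2 arrays. Vom2r3 was at 8.16 in the untreated sample of batch 5 at 4 h, while the other 4 lay between 8.50 and 8.60. The cause was not tested in either case.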

How the results depend on the processing

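The count near background was 107 to 118 under other references and 109 to 110 with a batch left out, and no named difference that was called changed sign. Called members moved by over 1.5 times as follows, and the causes were not tested. Without the replicate block the counts were 3 for gastrin at 4 to 8 h and 1 for gastrin at 10 and 14 h. They were 0 for cycloheximide at 1 and 2 h, 1 for cycloheximide at 4 and 6 h and 1 for untreated cells over time. Over all 22523 probes these fits called 214, 30, 909, 3271 and 1728, in the same order. The main fits called 2323, 1694, 2600, 5242 and 2038 probes. Array weights gave 2 for gastrin at 0.5 to 2 h (2825 of all probes) and 0 for cycloheximide at 1 and 2 h (1867). They gave 1 for gastrin beside cycloheximide at 4 and 6 h (764). The filter on dim probes gave 1 of 16 members for cycloheximide at 4 and 6 h (5121 of 11261 probes). Without blocks of array score above 0.5 the count was 8 for gastrin at 0.5 to 2 h (4220 of all probes). It was 0 for cycloheximide at 1 and 2 h (1552) and 3 for gastrin beside cycloheximide at 4 and 6 h (706). Above 0.25, a limit chosen after seeing the data, the count was 2 for gastrin at 0.5 to 2 h (1580 of all probes). It was 0 for cycloheximide at 4 and 6 h (3492) and 3 for gastrin beside it (266). There was no value at 1 and 2 h of cycloheximide. With 1 batch left out the counts ranged from 0 to 3 for gastrin at 0.5 to 2 h, 4 to 5 at 4 to 8 h and 2 to 5 at 10 and 14 h. They were 0 for cycloheximide at 1 and 2 h and 0 to 1 at 4 and 6 h. For gastrin beside cycloheximide at 4 and 6 h they were 0 to 1, and for untreated cells over time 0. Over all probes these fits called 214 to 3095, 757 to 2527 and 92 to 1455 for gastrin, in the order given. They called 652 to 716 and 2829 to 4789 for cycloheximide, 195 to 535 for gastrin beside it and 353 to 692 for untreated cells. Vom2r65 at 4 to 8 h of gastrin stayed between -0.64 and -0.72 in all fits. Signal over background of single probes is unknown, which limits the 110 dim members.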

Other observations

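The 2 arrays of batch 3 at 12 h whose labels contradict each other entered no comparison. The array with an untreated title and a gastrin label had Vom2r65 at 8.58, Vom2r3 at 8.04, Vom2r6 at 6.94, Vom2r4 at 6.87 and Vom2r59 at 8.10. The array with a gastrin title and an untreated label had Vom2r65 at 8.11, Vom2r3 at 7.24, Vom2r6 at 6.30, Vom2r4 at 6.61 and Vom2r59 at 7.80. Technical replicate arrays of batch 6 at 4 h differed over the 123 members by a median of 0.08 (gastrin alone) and of 0.09 (both agents), and by at most 0.45 and 0.32 in that order. Vom2r65 differed by 0.20 and 0.04 within these pairs.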
